A study of Homo sapiens with 2 samples.

Results

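HELZ2, HELZ, ZNFX1, DDX60 and DDX60L encode large helicases, and they were followed here by every probe set annotated to only 1 of them, matched by gene ID so that an older alias would be found as well. The 5 genes had 11 such probe sets among the 54675 of the array, and none of their probe sets carried a second gene. The untreated group was 1 culture of Huh-7 cells, a hepatoma cell line, whose medium was exchanged without interferon. The interferon group was 1 culture of the same line given recombinant human IFN-alpha 2b at 100 U/mL for 6 hours, and each culture was read on 1 array. An incubation of 24 hours is recorded for both cultures. No other difference between the cultures is stated, and the harvest time of the untreated one is not given. Both descend from 1 tumour line, so the values describe that line alone.

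Helicases use ATP to unwind or remodel RNA and DNA. HELZ2, HELZ and ZNFX1 carry a helicase core related to that of UPF1, the factor of nonsense-mediated RNA decay, whereas DDX60 and DDX60L carry a core related to that of the Ski2 helicase of the RNA exosome. In the antiviral response some helicases sense viral RNA themselves, as RIG-I and MDA5 do, and others are interferon-stimulated genes that act on viral RNA or on its sensing.

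A floor was set at an intensity of 48.5, the 50th percentile of both arrays together, and lower values were lifted to it before ratios were formed. Where the untreated value lay under the floor, only a lower bound of the ratio could be had, written "at least". Of the 11 probe sets, 7 exceeded the floor on both arrays, 3 only on the interferon array and 1 on neither. The medians of the arrays were 48.8 untreated and 48.0 with interferon, and no difference has a replicate check, so no test was made. The 8 hepatocyte and hepatoma markers examined, among them AFP and ALB, had untreated intensities from 3000 to 12212. Of 14 markers of leukocytes, endothelium and stellate cells, 6 stayed under the floor on both arrays. The rest exceeded it on 1 array or both. Among these, LYZ read 2064 untreated and 2271 with interferon, and COL1A2 read 544 and 560. None of the 14 differed by 2-fold.

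**Figure D1:**
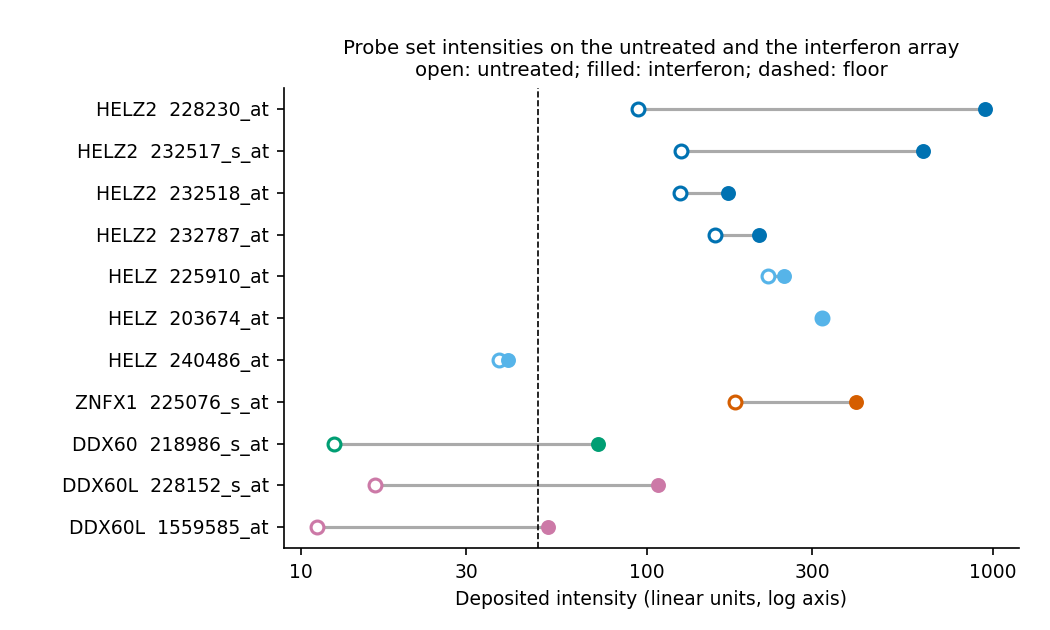
Deposited intensity of each of the 11 probe sets (log axis) on the untreated array (open circles) and the interferon array (filled circles), with the floor of 48.5 dashed. HELZ2 228230_at has the longest line, the lines of DDX60 and DDX60L start below the floor and end above it, and the HELZ circles nearly coincide.

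HELZ2 had the highest measured ratio of the group on its brightest probe set, where the ratios of DDX60 and DDX60L are lower bounds. It is known as a coactivator of PPAR nuclear receptors, which control lipid metabolism in liver, and as an interferon-stimulated gene. On probe set 228230_at the intensity was 94.5 untreated and 949 with interferon, which is 10.05-fold higher (log2 3.33). That moved the probe set from percentile 59.2 to percentile 93.6 of the single-gene probe sets of the respective array. Probe set 232517_s_at read 125.2 and 628.5, or 5.02-fold higher (log2 2.33). Both ratios lay far outside the spread of probe sets of like brightness, since among the 1000 nearest in mean intensity to 228230_at the middle 95% of log2 ratios lay from -0.17 to 0.35. That spread is across probe sets and is not a replicate error.

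The other probe sets of HELZ2 did not share that size. Probe set 232518_at read 125.0 and 171.0, or 1.37-fold higher (log2 0.45). Probe set 232787_at read 157.7 and 211.3, or 1.34-fold higher (log2 0.42). Both were higher on the interferon array and above the central 95% of their own neighbours in brightness, whose upper ends were 0.35 for each, but neither reached 2-fold. Levels of different probe sets are not comparable as amounts of RNA, so for HELZ2 only the ratios are set side by side.

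The HELZ2 ratios spanned 2.91 on the log2 scale, from 0.42 to 3.33. This was the widest span among the 986 genes that had 4 or more probe sets exceeding the floor on both arrays, for which the median span was 0.25. Of those 986 genes, 6 had a probe set at least 2-fold higher, and their median span was 1.59. After HELZ2 came the nuclear body protein SP110, with a span of 2.55 and 4 of 4 probe sets past 2-fold, and PML, the organiser of nuclear bodies, with 1.92 and 1 of 8. RNF213 followed with 1.25 and 2 of 4, the nucleotide hydrolase SAMHD1 with 0.47 and 4 of 4, and OGFR with 0.42 and 1 of 4. The comparison with these genes was chosen after the values were seen. Which transcripts each HELZ2 probe set reads was not tested. If the probe set with the highest untreated value had stood for the gene, HELZ2 would have had a log2 ratio of 0.42 and would not have passed 2-fold.

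**Figure D2:**
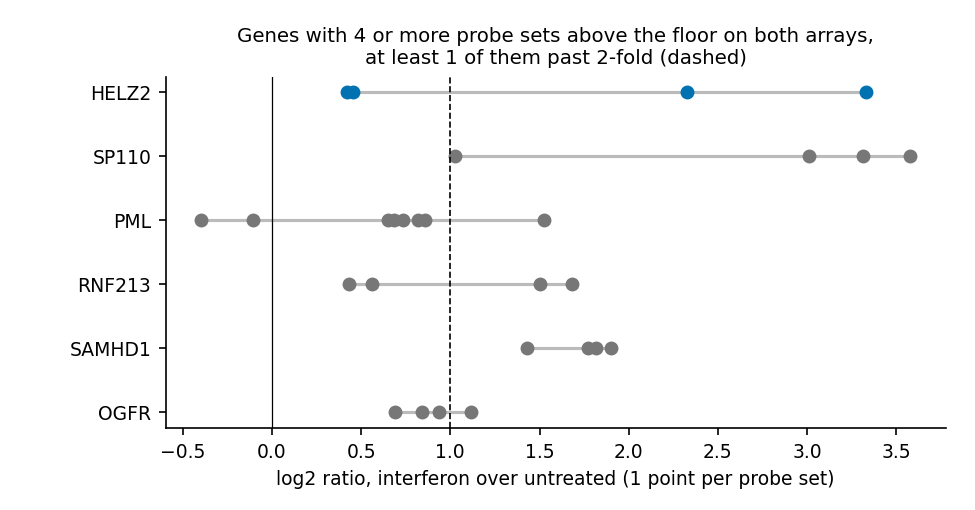
log2 ratio of interferon over untreated for each probe set of the 6 genes with 4 or more probe sets exceeding the floor on both arrays and at least 1 past 2-fold (dashed line). HELZ2 (blue) falls into a low pair at 0.42 and 0.45 and a high pair at 2.33 and 3.33, whereas the 4 points of SAMHD1 all lie past 2-fold within a span of 0.47.

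HELZ, the relative of HELZ2 that binds the CCR4-NOT deadenylase and takes part in mRNA decay, was nearly the same on both arrays. Probe set 203674_at read 320.1 untreated and 321.5 with interferon, a log2 ratio of 0.01. Probe set 225910_at read 224.0 and 249.0, a log2 ratio of 0.15. Both lay inside the central 95% of probe sets of like brightness, which reached 0.32 and 0.31 at its upper end. Probe set 240486_at stayed under the floor on both arrays, with 37.4 and 39.7, so no ratio is given for it. None of the HELZ probe sets therefore differed by 2-fold, whereas 2 of the 4 HELZ2 probe sets did.

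ZNFX1 joins a helicase core to zinc fingers of the NFX1 type, and it is known to bind double-stranded RNA at mitochondria and to signal through the adaptor MAVS. Its only probe set, 225076_s_at, read 179.9 untreated and 400.9 with interferon, which is 2.23-fold higher (log2 1.16). Among probe sets of like brightness the central 95% of log2 ratios ended at 0.33. With 1 probe set the value has no second reading within the array. Its neighbours in the annotation were under 2-fold. ZFAS1, a noncoding RNA gene beside ZNFX1 that hosts small nucleolar RNAs, had log2 ratios from 0.13 to 0.16 over its 3 probe sets above the floor, and DDX27, the helicase gene on the other side, had 0.09 and 0.10.

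DDX60 and DDX60L are adjacent genes, and both were dim in untreated cells. DDX60 has been described as a helper of RIG-I signalling and as a restriction factor for several RNA viruses. DDX60L is known as an interferon-stimulated gene that limits hepatitis C virus in hepatoma cells. On the DDX60 probe set 218986_s_at the intensity was 12.5 untreated, below the floor, and 72.1 with interferon, so that it was at least 1.49-fold higher (log2 at least 0.57). The DDX60L probe set 228152_s_at read 16.4, under the floor, and 107.8, which is 2.225-fold higher at the least (log2 at least 1.15). The second DDX60L probe set, 1559585_at, read 11.1 and 51.6, barely above the floor, and its bound was 1.065-fold.

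All 3 probe sets thus went from below the floor to above it, and the floor sets the size of their bounds. Of the 17697 single-gene probe sets below the floor on the untreated array, 477 (2.7%) were above it on the interferon array. Without a floor, a setting added after the data were seen, the deposited intensities gave 5.78-fold for DDX60 and 6.59-fold and 4.64-fold for DDX60L. Ratios of at least 4-fold without a floor were found for 27 (0.153%) of those 17697 probe sets, and the 3 of DDX60 and DDX60L were among them. No detection calls were used here, so whether untreated values this low exceed background was not tested, and the size of these ratios is uncertain. With the floor at the 40th percentile the DDX60 bound passed 2-fold (log2 at least 1.17), and with the floor at the 60th percentile DDX60 was under it on both arrays while the DDX60L bound fell to 0.55. Of the flanking genes, ANXA10 stayed under the floor on both arrays, with 18.7 and 19.6, and the probe sets of PALLD above the floor had log2 ratios from 0.06 to 0.22.

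The suffix _s_at marks probe sets that match several transcripts, of 1 gene or of close relatives. DDX60 and DDX60L are close relatives, and both their probe sets of 72.1 and 107.8 with interferon carry it, so signal shared between these genes cannot be told apart. The second DDX60L probe set and HELZ2 228230_at do not carry the suffix. When those with the suffixes _x_at or _s_at were left out, HELZ2 228230_at was the only 1 of 6 remaining probe sets of the group past 2-fold. Of all 14195 probe sets then counted, 0.345% were at least 2-fold higher.

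**Figure D3:**
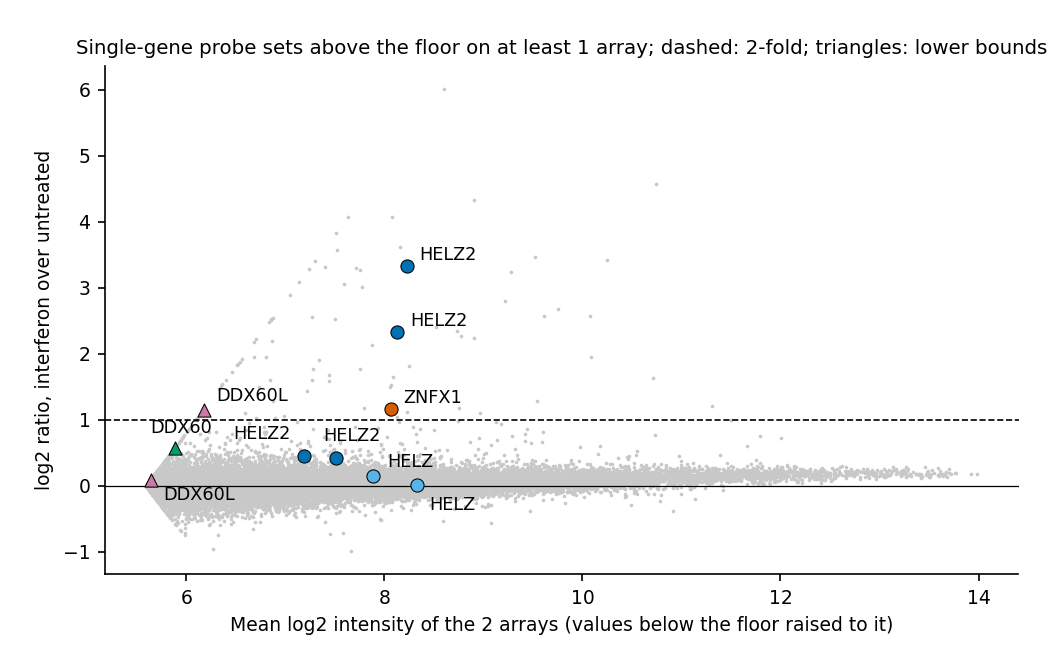
log2 ratio of interferon over untreated against the mean log2 intensity of both arrays for the 23871 single-gene probe sets that exceeded the floor on 1 array or both (grey) and the 10 of the helicase genes among them (coloured, triangles where the ratio is a lower bound). HELZ2 228230_at at 3.33 and 232517_s_at at 2.33 stand well above the grey band, ZNFX1 and the brighter DDX60L probe set lie just past the dashed 2-fold line, and the HELZ points lie within the band.

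Over the group, 4 of the 10 probe sets that exceeded the floor on 1 array or both were at least 2-fold higher with interferon, where the same held for 87 (0.364%) of all 23871 such probe sets. The 3 probe sets of DDX60 and DDX60L entered this count only through the interferon array, so no support is drawn from it. Among the 7 above the floor on both arrays, 3 were at least 2-fold higher, against 0.26% of 22682. Of these 3, 2 belong to HELZ2 and are not separate genes. The members were chosen with earlier results of these data known, so no support is drawn from this count either. The median log2 ratio of the 7 was 0.45, and that of the 22682 was 0.04. No member and no other counted probe set was at least 2-fold lower. At 1.5-fold the count was again 4, where 0.754% of all counted probe sets passed. With 1 probe set per gene, the one of highest mean intensity, HELZ2, ZNFX1 and DDX60L passed 2-fold, as did 0.43% of 13269 genes.

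These directions were measured against the deposited scaling. Centring on the 18 bacterial and phage hybridisation control probe sets, which were brighter on the interferon array by a median log2 of 0.43, moved the median of the counted genes from 0.03 to -0.38. Where both values exceed the floor the centring subtracts the same amount from every ratio, so the distance of HELZ2 (3.30 and 3.28), ZNFX1 (1.12 and 1.11) and HELZ (-0.03 and -0.04) from that median stayed alike by construction. The bounds of DDX60 and DDX60L moved less, because the floor that stands for their untreated values was set anew and fell from 48.5 to 41.9. Relative to the median they went from 0.54 to 0.73 and from 1.12 to 1.31, a rise that comes from the lower floor and not from a larger difference. Taken without that reference, ZNFX1 and DDX60L no longer passed 2-fold, at 0.73 and 0.94, HELZ was at -0.42, and HELZ2 remained past it at 2.90. The lower pair of HELZ2 probe sets was then at 0.03 and -0.006, so that the small differences reported for them depend on the scaling.

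DDX60 and DDX60L promoters are printed because these adjacent genes moved in the same direction, and that of HELZ2 because 2 of its probe sets were more than 5-fold higher. Sequences come from the RefSeq promoter table, build GRCh38.p14, in which 4 of the 5 genes matched. Each run is the 250 bases before a listed transcription start, 5′ to 3′ on the minus strand, at chr4:168318753-168319002 for DDX60, chr4:168480493-168480742 for DDX60L and chr20:63574240-63574489 for HELZ2. Capitals mark matches to GAAANNGAA, the core of the interferon-stimulated response element found in promoters of many interferon-stimulated genes, searched on both strands.
DDX60: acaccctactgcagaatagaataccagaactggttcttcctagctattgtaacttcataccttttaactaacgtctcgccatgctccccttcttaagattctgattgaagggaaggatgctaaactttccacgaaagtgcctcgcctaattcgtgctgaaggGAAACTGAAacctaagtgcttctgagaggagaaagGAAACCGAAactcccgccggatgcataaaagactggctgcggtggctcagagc
DDX60L: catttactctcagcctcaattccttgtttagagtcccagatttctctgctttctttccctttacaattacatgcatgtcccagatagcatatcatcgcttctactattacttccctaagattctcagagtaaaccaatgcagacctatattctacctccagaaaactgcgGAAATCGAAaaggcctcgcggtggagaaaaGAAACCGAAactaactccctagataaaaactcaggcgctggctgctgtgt
HELZ2: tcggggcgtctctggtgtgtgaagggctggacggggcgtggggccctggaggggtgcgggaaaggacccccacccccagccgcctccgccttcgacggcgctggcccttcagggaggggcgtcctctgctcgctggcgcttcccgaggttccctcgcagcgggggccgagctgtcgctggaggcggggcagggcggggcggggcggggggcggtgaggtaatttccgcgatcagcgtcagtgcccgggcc

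Both the DDX60 and the DDX60L window held 2 matches. In DDX60 they were GAAACTGAA from position -88 to -80 and GAAACCGAA from -53 to -45, counted from the start, with -1 the base before it. In DDX60L they were GAAATCGAA from -80 to -72 and GAAACCGAA from -50 to -42. The matches nearer the start were the same 9 letters at nearly the same distance, and they lay within a run of 12 bases that both windows share, GAAACCGAAACT. The windows also share a longer run of 15 bases, GTGGCTCAGAGCGCC, which holds no match and begins at -12 in DDX60 and at -2 in DDX60L. The match farther from the start differed between the genes in the bases that the motif leaves free.

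The listed windows of 300 bases, which add 50 bases after the start, served as background. At least 1 match was found in 2847 (8.11%) of 35116 windows of all genes, and at least 2 in 246 (0.701%). Of the 57 genes at least 2-fold higher, 48 had a window, and 31 of these (64.6%) held a match, against 8.12% of the 10683 counted genes with a window. At least 2 matches were held by 14 of the 48. The HELZ2 windows, of which the table lists 2 starts, and the HELZ window held none. HELZ2 therefore lay among the 2-fold genes whose window lacks these letters, which says only that they are not in this window. With the shorter letters GAAANNGA, a motif added after the sequences were seen, HELZ2 had 1 match, GAAACTGA, from 7 to 14 after its start, and HELZ had 1 at -228 to -221, where 20.3% of all windows held one.

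The gamma-activated sequence TTCNNNGAA, which reads the same on both strands, was found in 1 of the 4 genes. DDX60 held TTCCACGAA from -124 to -116, which overlapped neither response element core. A match was held by 7.66% of all windows and by 8.45% of the counted genes with a window. Among the 48 genes at least 2-fold higher with a window, 15 (31.2%) held one. The windows differed in base composition, with G and C making up 46.8% of the 250 bases for DDX60, 42.8% for DDX60L, 75.2% for HELZ2 and 67.6% for HELZ. A match is a description of letters and not evidence of binding.

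**Figure D4:**
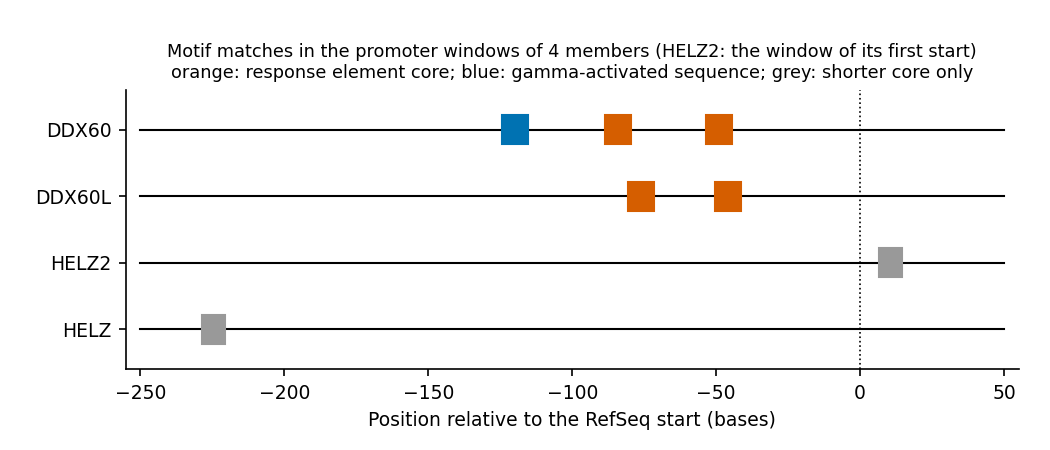
Matches along the promoter windows of DDX60, DDX60L, HELZ2 and HELZ, from 250 bases before the RefSeq start to 50 bases after it (dotted line at the start), with the response element core in orange, the gamma-activated sequence in blue and matches to the shorter core alone in grey. The orange boxes of DDX60 begin at -88 and -53 and those of DDX60L at -80 and -50, and HELZ2 and HELZ have grey boxes only.

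Relatives of these helicases in the same families showed no difference of that size, where 0.43% of all 13269 counted genes were at least 2-fold higher. Of the UPF1-like helicases, 7 of the 8 listed had a single-gene probe set, 6 exceeded the floor on 1 array or both, and 0 were at least 2-fold higher or lower. Their log2 ratios ran from -0.07 to 0.14 with a median of 0.06, where the median of all counted genes was 0.03. UPF1 itself had 0.02 and MOV10, a helicase that restricts retroelements, had 0.14. The Ski2-like helicases, with 6 of 7 counted, had 0 past 2-fold and a median of 0.04, including SKIC2 of the cytoplasmic exosome at 0.14 and MTREX of the nuclear exosome at 0.05. The zinc finger relatives NFX1 and NFXL1 had log2 ratios of 0.06 and 0.13.

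Among helicases whose current symbol is DDX or DHX with a number, other than DDX60 and DDX60L, 45 of 49 genes were counted. Of these 45, 0 were at least 2-fold higher or lower, where 0.43% of all 13269 counted genes were at least 2-fold higher. The list follows current symbols, so helicases named otherwise, among them RIGI, are not in it. The highest was DDX3X, a translation helicase that also takes part in innate signalling, with intensities of 3021 and 3936 and a log2 ratio of 0.38. The 10 DEAD and DEAH helicases tied to nucleic acid sensing had a median of 0.13, and DDX41, a sensor of cytosolic DNA, had 0.004. In the list of RIG-I-like receptors, 2 of 3 were at least 2-fold higher. RIGI had a log2 ratio of 2.56 on its brightest probe set, and all 3 of its counted probe sets passed 2-fold. IFIH1, which encodes MDA5, was at least 9.74-fold higher on its only counted probe set, from an untreated value below the floor. The third, DHX58, read 53.3 and 54.8, close to the floor.

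**Figure D5:**
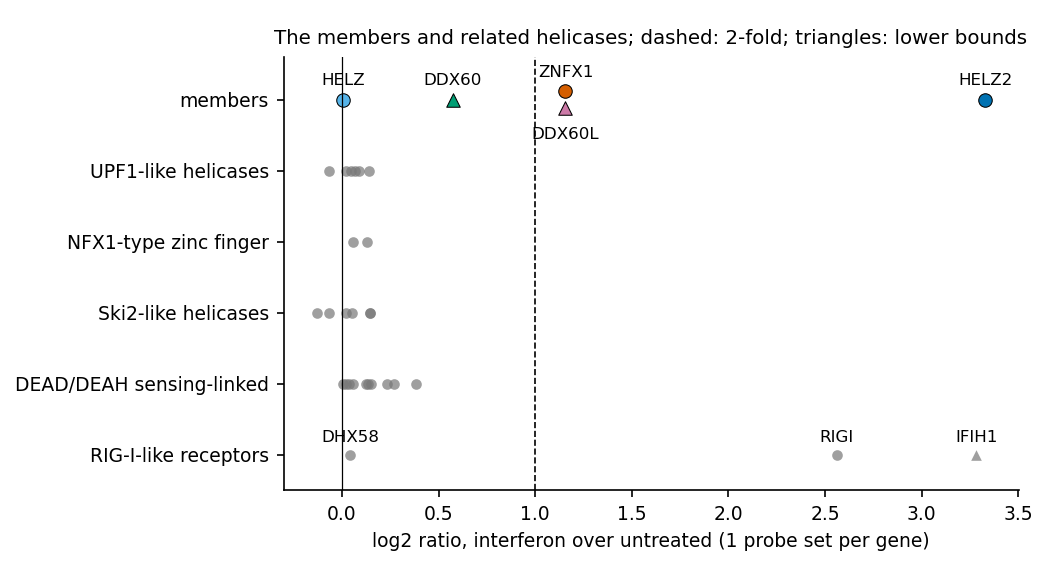
log2 ratio of interferon over untreated with 1 probe set per gene for the 5 helicase genes and for the counted members of 5 lists of related helicases (grey), with lower bounds as triangles. UPF1-like, NFX1-type, Ski2-like and sensing-linked DEAD and DEAH helicases all lie below 0.39, whereas HELZ2 at 3.33, RIGI at 2.56 and IFIH1 at 3.28 lie far to the right of the dashed 2-fold line.

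None of the 9 counted genes of proteins described as partners of the group differed by 2-fold in RNA signal, and their median log2 ratio was 0.02. For HELZ2 these were the receptors PPARA (-0.13), PPARG (0.02) and RXRA (-0.002) and the coactivator THRAP3 (0.09), each by its brightest probe set. Other probe sets differed in sign. PPARA ran from -0.13 to 0.40 over 5 counted probe sets, and THRAP3 from -0.23 to 0.18 over 3. CNOT1, the scaffold of CCR4-NOT and a partner of HELZ, had 0.09, and PABPC1, which coats poly(A) tails, had 0.19. MAVS, the adaptor through which ZNFX1 signals, had -0.02. Of the interferon signal itself, 6 of 9 listed genes were counted and only IRF9 passed 2-fold, at 20.1-fold. The 6 reference interferon-stimulated genes were all at least 2-fold higher, with a median log2 ratio of at least 3.31, since 4 of them are bounds.

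The genes nearest to each helicase gene in intensity on both arrays were named by distance between log2 values. HELZ2, by its probe set 228230_at alone, lay nearest to EIF2AK2, the kinase PKR, at a distance of 0.23, with 81.3 untreated and 1001 with interferon. IFIT5 (0.57) and PARP14 (0.66) came next. The HELZ2 probe sets 232518_at and 232787_at, at 1.37-fold and 1.34-fold, did not enter these distances. ZNFX1 lay nearest to HLA-E (0.06), TRIM5 (0.11) and FBXO6 (0.17), of which TRIM5, a factor that targets retroviral capsids, read 194.7 and 402.3. DDX60L lay nearest to TNFSF10 (0.007), OAS2 (0.06) and IFIT2 (0.07), all of them below the floor when untreated and therefore set to the same untreated value. DDX60 lay nearest to CHROMR (0.04), C4orf33 (0.08) and SLC15A3 (0.09), but only because it was lifted to the floor, since their untreated intensities were 49.6, 48.7 and 45.2 and its own was 12.5. HELZ lay nearest to RAB11FIP1 (0.005), SHKBP1 (0.008) and TP53BP1 (0.01), whose log2 ratios were all within 0.01 of 0. With 2 arrays the likeness rests on 2 values a gene. Because it sets levels of different probe sets side by side, it describes deposited intensities and not amounts of RNA.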

How the data were processed

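RNA of 2 Huh-7 cultures was read on 1 Affymetrix array each. The authors deposited 1 linear intensity for each probe set of each array. These were made with GCOS, per the submitters' processing notes. The GCOS version, background correction and array scaling were not given in the sources used here, and another scaling would shift all ratios. The number of arrays limits the precision, and with 1 array per condition no test was made.

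Names came from the platform annotation, with symbols updated through the gene ID. Leaving out 62 controls, 41091 probe sets were annotated to 1 gene, 1801 to several and 11721 to none in that table, and only the first kind was used. Values were floored at the 50th percentile, and log2 ratios were formed in Python 3.11.15. The call was 2-fold. A gene was represented by its brightest probe set over both arrays on the log2 scale. Alternatives were floors at the 40th and 60th percentile, pseudocounts of 1 and 16, median, quantile and lowess scaling, centring on hybridisation controls and other choices of probe set. The ratio and floor steps were tested on simulated data, with changes placed only in probe sets well above the floor. Lower bounds such as those of DDX60 and DDX60L were not tested in this way.

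The members, the gene lists and the alternatives were chosen with earlier results of these data known. Genes named are the members, the 3 genes nearest to each on both arrays, the listed relatives, partners and markers, and annotated neighbours, besides the 5 genes set beside HELZ2 for their probe set spread.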

Additional observations from a re-analysis of the deposited data

How the results depend on the processing

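No paired analysis was possible because each condition had 1 array, and for the same reason no replicate could be left out. HELZ kept a log2 ratio within 0.08 of 0 in every setting except centring on the hybridisation controls. Centring on those controls gave -0.42 for HELZ, 0.73 for ZNFX1, 0.36 for DDX60 and 0.94 for DDX60L. It left 2 of 9 counted member probe sets past 2-fold, both of HELZ2, against 0.269% of all counted probe sets. Median, quantile and lowess scaling moved no member across 2-fold.

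The treatment of low values decided DDX60. A floor at the 40th percentile gave it a log2 ratio of 1.17, a floor at the 60th gave 0.0, as both its values then fell under the floor, and it had 2.44 with a pseudocount of 1, 1.63 with a pseudocount of 16 and 2.53 with no floor, the last being chosen after seeing the data. DDX60L was at 0.55 under the floor at the 60th percentile and at 0.62 as the mean of its probe sets, but at 1.75 under the floor at the 40th percentile, 2.65 with a pseudocount of 1 and 1.94 with a pseudocount of 16. HELZ2 was at 0.42 on the probe set of highest untreated value. Without _x_at and _s_at probe sets 1 of 6 member probe sets passed 2-fold, against 0.345% of all 14195 counted. The count was 3 of 8 under the higher floor and 5 of 11 under the lower floor, against 0.387% and 0.356% of all counted probe sets. With pseudocounts of 1 and 16 it was 6 of 11 each time, against 0.265% and 0.229% of all 41091. The floor limits all values of DDX60 and DDX60L, whereas HELZ2 228230_at stayed between 2.90 and 3.35.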
